A study of Macaca mulatta with 39 samples.

Results

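PLAGL1, DIRAS3, SGCE, SNRPN and MAGEL2 are 5 genes that, in humans, are transcribed from the chromosome copy inherited from the father. All probe sets that name one of them and no other gene were taken, which gave 6 probe sets for these 5 of 14132 genes measured. PLAGL1, DIRAS3, SGCE and MAGEL2 had 1 probe set each and SNRPN had 2. They were followed across 13 cell sources of rhesus macaque on oligonucleotide arrays. The sources were the female embryonic stem cell (ESC) line C3806 and the male line C3106, 8 teratoma-derived fibroblast cultures, and 3 skin fibroblast cultures. A teratoma is the mixed-tissue tumour that ESCs form after injection into immune-compromised mice. Cultures TA38, TB38 and TC38 came from line 3806 and cultures TA31, TB31, TC31, TD31 and TE31 from line 3106. The skin cultures M032, M088 and M106p1 came from parents of the lines, and the labels do not pair a parent with a line. Each ESC line is a single source, so the ESC arrays repeat 2 genomes only.

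Imprinted genes carry a methylation mark set in the egg or the sperm, and the mark keeps one parental copy silent in the offspring's cells. PLAGL1 encodes a zinc finger transcription factor that restrains growth, and DIRAS3 encodes a Ras-family GTPase that acts against Ras signalling. SGCE encodes epsilon-sarcoglycan, a membrane protein of the sarcoglycan complex. SNRPN encodes SmN, a protein of the spliceosome's small nuclear ribonucleoproteins, and MAGEL2 encodes a MAGE protein that works with a ubiquitin ligase in endosomal sorting. SNRPN and MAGEL2 lie in the imprinted region whose paternal loss causes Prader-Willi syndrome in humans. These roles and the parental origin are known from human and mouse. The arrays read both parental copies together, so a signal here is the sum of both.

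In the RefSeq gene table, PLAGL1 lies on rhesus chromosome 4, DIRAS3 on chromosome 1, SGCE on chromosome 3, and SNRPN and MAGEL2 on chromosome 7. Signals are given on the log2 scale as deposited, where 1 unit is a doubling. Levels of different probe sets are not read as amounts of RNA against each other, because probes differ in how brightly they bind. Ranks within an array and signals of other genes are given beside a member as descriptions. The deposited signals come without detection calls, so a fold here is a fold of signals, and where the lower signal is near background it does not give the fold of the RNA.

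Of the 39 arrays, 3 went against their labels and were left out. The array labelled C3806c resembled culture TC38 (r of 0.877 across probe sets, against −0.180 with the other arrays of its label). The array labelled TB31c resembled M106p1 (0.951, against −0.095), and the array labelled M106p1f resembled TD31 (0.957, against −0.233). In the array labelled C3806c, PLAGL1 read 9.59 and MAGEL2 read 6.99, which are fibroblast levels. Among the 36 arrays used, 34 resembled their own source most, and the other 2 were C3806a and C3806b, which resembled C3106 most. Array C3806a had an actin 3′ minus 5′ probe gap of 3.89, while no other array passed 0.777. The sources carried the markers of their labels: 8 ESC markers averaged 11.38 to 11.58 in ESC lines, 5.30 to 5.48 in teratoma cultures and 5.23 to 5.33 in skin cultures. The 9 fibroblast markers averaged 6.91 to 6.92 in ESC lines, 11.14 to 11.52 in teratoma cultures and 11.14 to 11.36 in skin cultures. By the rule given below, 6 of these 9 were called as lower in ESCs, and THY1, TWIST1 and COL3A1 were not.

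**Figure D1:**
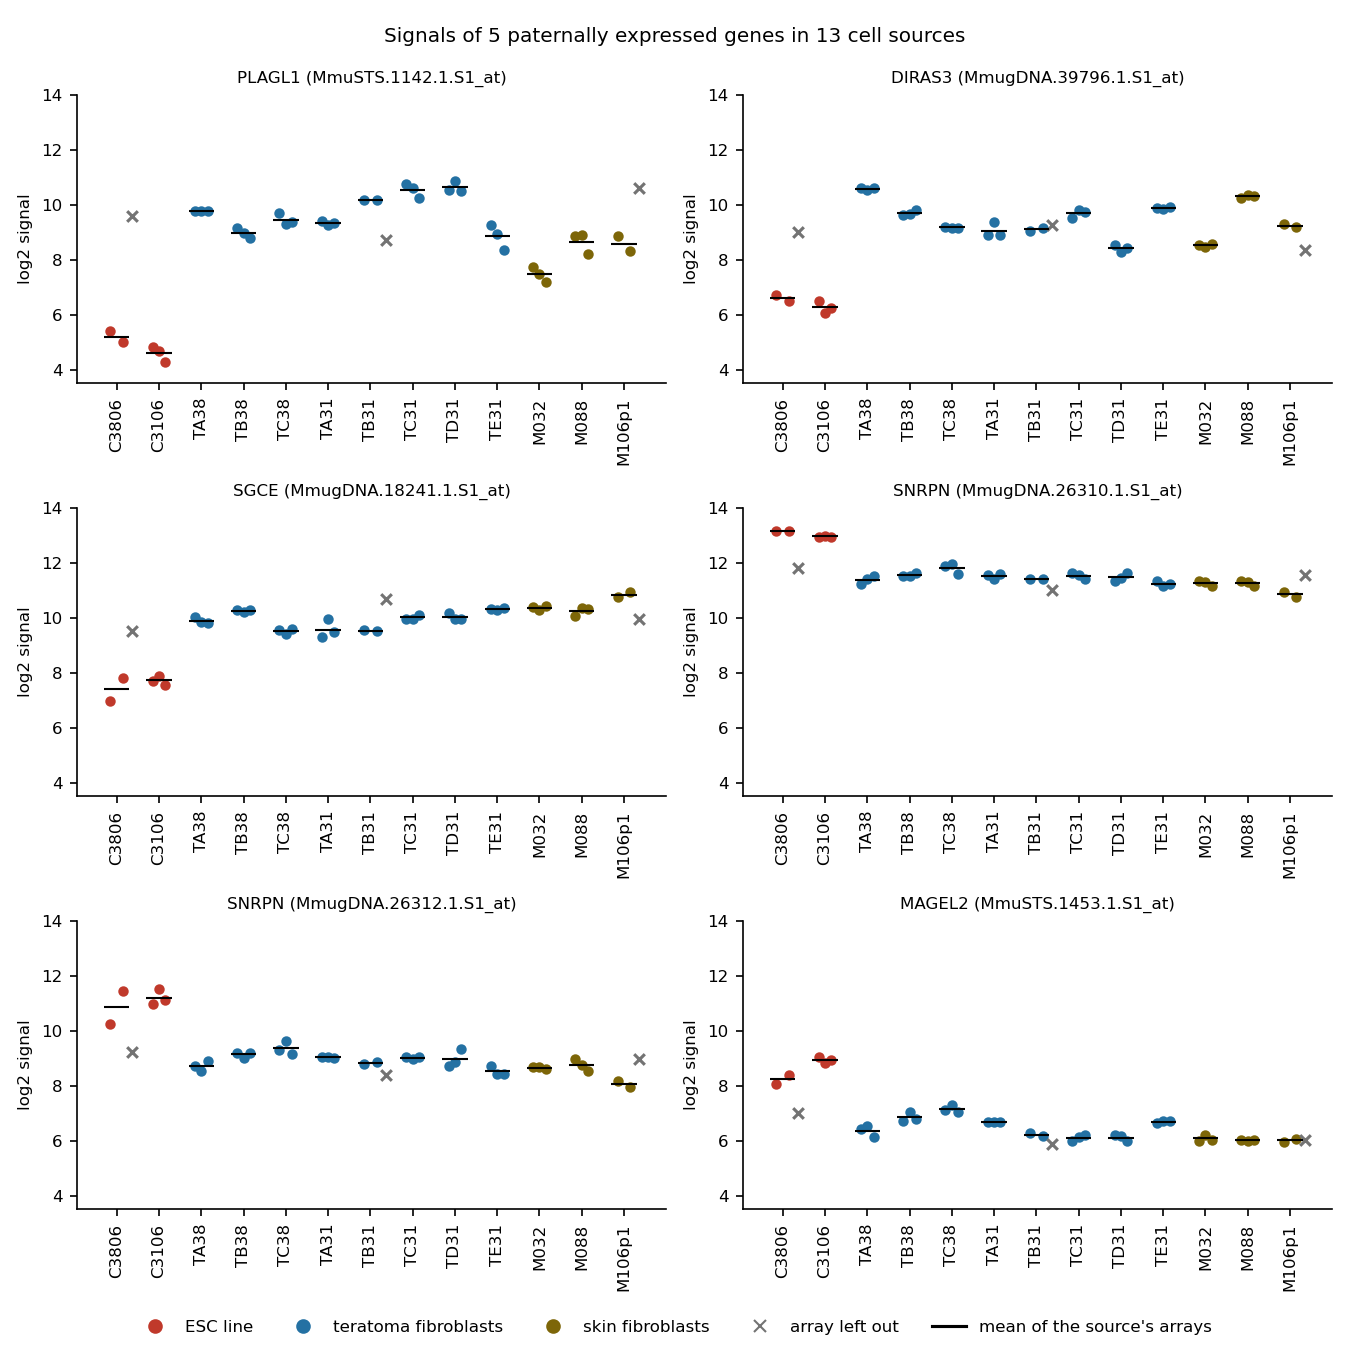
Log2 signal (vertical axis) of each probe set in each of the 13 sources (horizontal axis), with 1 dot per array, a bar at the mean of a source and a grey cross for an array left out. PLAGL1, DIRAS3 and SGCE sit low in both ESC lines, and both SNRPN probe sets and MAGEL2 sit high there.

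The first comparison set pluripotent cells against fibroblasts grown from the same lines. PLAGL1, DIRAS3 and SGCE were lower in ESCs than in teratoma fibroblasts, by 27.0-fold, 8.53-fold and 5.04-fold. SNRPN and MAGEL2 were higher in ESCs, by 2.93-fold and 4.14-fold on the 2 SNRPN probe sets and by 4.04-fold for MAGEL2. A probe set was called at an adjusted p under 0.05 and a log2 difference of at least 1, in limma on 13 source means with Benjamini-Hochberg adjustment over 24956 probe sets. All 6 were called, in a comparison that called 14.6% of all probe sets, 6.12% as higher and 8.51% as lower in ESCs. The 5 genes were chosen with that outcome known, so nothing is read from their count. The estimates give the teratoma cultures of each line equal weight, and so differ slightly from a difference of plain means. In bulk RNA, fewer cells that express a gene and less RNA of it per cell cannot be told apart.

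PLAGL1 read 5.39 and 5.02 in the C3806 arrays and 4.83, 4.67 and 4.29 in the C3106 arrays. These were not shown to lie above background: POU5F1, a gene of pluripotent cells, read 4.64 to 4.93 in the fibroblast cultures. EPCAM, another of the ESC markers, read 2.72 to 3.06 there, so such low signals differ between probe sets. In the 23 teratoma arrays PLAGL1 ran from 8.35 through a median of 9.68 to 10.86. The ESC arrays and the teratoma arrays did not come near each other, with the closest source means 3.65 apart. Within an array, PLAGL1 ranked at the 9.62 percentile of probe sets in C3106 and the 16.1 percentile in C3806, and at the 92.4 percentile in TD31. Its source means averaged 4.90 ± 0.43 in ESC lines (SD, n = 2) and 9.72 ± 0.68 in teratoma cultures (SD, n = 8). The fitted difference was −4.76 (SE 0.48, 95% interval −5.83 to −3.68, limma adjusted p = 3.4e-05).

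DIRAS3 read 6.71 and 6.49 in the C3806 arrays and 6.50, 6.06 and 6.24 in the C3106 arrays, against 8.29, 9.52 and 10.62 as the lowest, median and highest of the teratoma arrays. Its ESC signals were low but not at the bottom of the arrays, at the 35.2 to 42.0 percentile of probe sets. They were not shown to lie above background either: SALL4, another of the ESC markers, averaged 6.53 in the teratoma cultures. The source means averaged 6.43 ± 0.23 in ESC lines and 9.45 ± 0.65 in teratoma cultures, and the fitted difference was −3.09 (SE 0.50, limma adjusted p = 0.000755).

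SGCE read 6.98 and 7.81 in the C3806 arrays and 7.71, 7.90 and 7.55 in the C3106 arrays, against 9.30, 9.95 and 10.36 as the lowest, median and highest of the teratoma arrays. The lowest of all was C3806a, the array with the wide actin gap. The source means averaged 7.56 ± 0.23 in ESC lines and 9.89 ± 0.32 in teratoma cultures, a fitted difference of −2.33 (SE 0.25, limma adjusted p = 4.38e-05). It was −2.13 without C3806a.

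SNRPN on the brighter probe set (MmugDNA.26310.1.S1_at) read 13.17 in both C3806 arrays and 12.96, 12.97 and 12.96 in the C3106 arrays. The teratoma arrays ran from 11.15 through 11.51 to 11.97. These ESC signals stood at the 99.7 and 99.8 percentiles of all probe sets, and arrays of a line differed by under 0.01. The fitted difference was 1.55 (SE 0.14, limma adjusted p = 1.38e-05), with means of 13.07 ± 0.15 in ESC lines and 11.50 ± 0.16 in teratoma cultures.

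SNRPN on the dimmer probe set (MmugDNA.26312.1.S1_at) read 10.25 and 11.45 in the C3806 arrays and 10.97, 11.53 and 11.12 in the C3106 arrays. The teratoma arrays ran from 8.41 through 9.02 to 9.62. The difference was 2.05 (SE 0.21, limma adjusted p = 3.99e-05) and became 2.35 without C3806a, where this probe set was lowest among ESC arrays. Both probe sets ordered the fibroblast cultures alike (r = 0.983 over 11 cultures, as a description). The gap between them was 1.44 to 2.92 in ESC arrays, 2.29 to 2.86 in teratoma arrays and 2.37 to 2.81 in skin arrays. The 2.92 was that of C3806a. Medians of the gap were 1.84 in ESC, 2.56 in teratoma and 2.62 in skin arrays, so it was mostly narrower in ESCs.

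MAGEL2 read 8.07 and 8.39 in the C3806 arrays and 9.04, 8.84 and 8.95 in the C3106 arrays, against 5.97, 6.64 and 7.29 as the lowest, median and highest of the teratoma arrays. ESC and teratoma arrays did not overlap, although the teratoma signals were not shown to lie above background. The source means averaged 8.59 ± 0.50 in ESC lines and 6.52 ± 0.38 in teratoma cultures, a fitted difference of 2.01 (SE 0.21, limma adjusted p = 4.43e-05). The source means of ESC lines and teratoma cultures did not overlap for any of the 6 probe sets, as was so for 43.8% of all probe sets.

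Set against the skin fibroblasts of the parents, the ESC lines gave the same directions. That comparison shares the ESC sources with the one above, so the 2 sets of values are not independent. All 6 probe sets were called, where 19.3% of all probe sets were, 9.52% as higher and 9.77% as lower in ESCs. PLAGL1 averaged 4.90 ± 0.43 in ESC lines (n = 2) and 8.24 ± 0.67 in skin cultures (n = 3), a difference of −3.34 (SE 0.55, limma adjusted p = 0.000823). DIRAS3 averaged 6.43 ± 0.23 in ESC lines and 9.36 ± 0.90 in skin cultures, a difference of −2.93 (SE 0.58, limma adjusted p = 0.00231). SGCE averaged 7.56 ± 0.23 in ESC lines and 10.49 ± 0.32 in skin cultures, also a difference of −2.93 (SE 0.28, limma adjusted p = 2.5e-05).

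The mean of the skin cultures lay between those of ESCs and teratoma cultures for PLAGL1, and above that of the teratoma cultures for SGCE. SNRPN averaged 13.07 ± 0.15 in ESC lines and 11.13 ± 0.24 in skin cultures on the brighter probe set, a difference of 1.94 (limma adjusted p = 8.42e-06). The dimmer SNRPN probe set differed by 2.54 (limma adjusted p = 2.51e-05). MAGEL2 averaged 8.59 ± 0.50 in ESC lines and 6.04 ± 0.03 in skin cultures, a difference of 2.55 (limma adjusted p = 2.42e-05). With the 3 left-out arrays put back under their labels, all 6 calls against both fibroblast kinds stayed, with PLAGL1 at −3.98 against teratoma and −2.83 against skin fibroblasts.

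**Figure D2:**
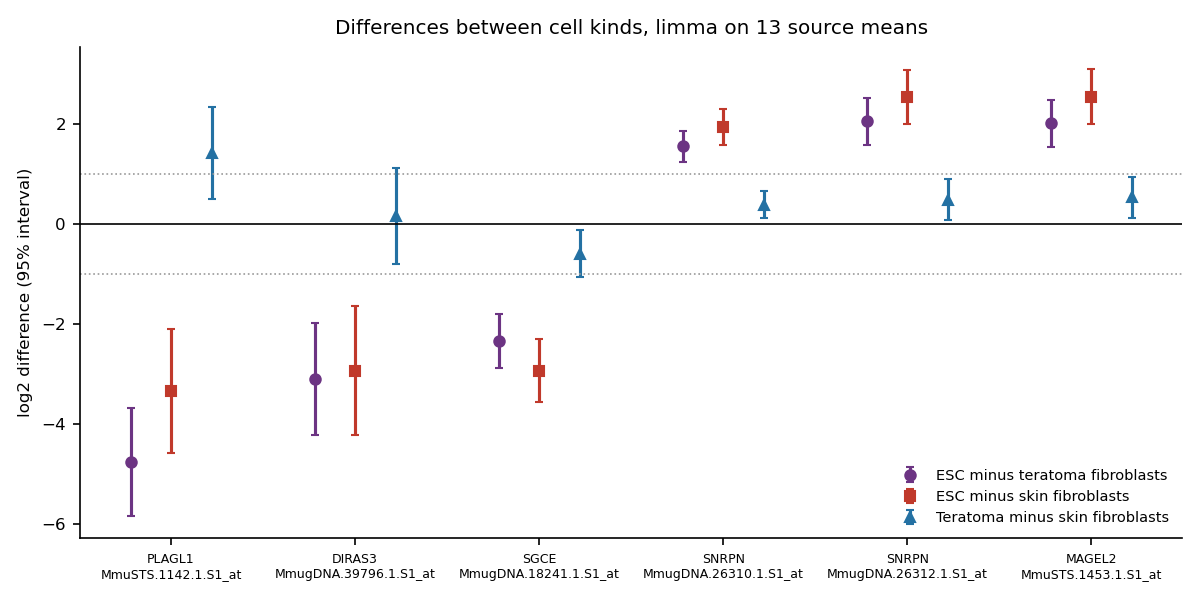
Log2 difference (vertical axis) with its 95% interval for each probe set, in ESCs minus teratoma fibroblasts (circles), ESCs minus skin fibroblasts (squares) and teratoma minus skin fibroblasts (triangles), from limma on 13 source means. Dotted lines mark a difference of 1 either way. All ESC intervals lie beyond 1, and all teratoma minus skin intervals reach inside it.

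The third comparison set fibroblasts made from ESCs against fibroblasts grown from adult skin. No member was called, where 1.06% of all probe sets were. At an unadjusted p under 0.05, limma had 5 of the 6 probe sets, all but DIRAS3, and 21.8% of all probe sets. PLAGL1 averaged 9.72 ± 0.68 in teratoma cultures (n = 8) and 8.24 ± 0.67 in skin cultures (n = 3). The difference was 1.42 (95% interval 0.49 to 2.34, limma adjusted p = 0.0855). The lowest teratoma culture, TE31 at 8.85, lay 0.19 above the highest skin culture, M088 at 8.66. Without TE31 the difference was 1.55 with a limma adjusted p of 0.032, and without the skin culture M032 it was 1.03 with the call still absent.

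MAGEL2 averaged 6.52 ± 0.38 in teratoma cultures and 6.04 ± 0.03 in skin cultures, a difference of 0.53 (95% interval 0.13 to 0.94, limma adjusted p = 0.126). Its culture means also did not overlap, by a margin of 0.03, and 7.33% of all probe sets had no overlap here. Neither of these MAGEL2 levels was shown to lie above background. SGCE averaged 9.89 ± 0.32 in teratoma cultures and 10.49 ± 0.32 in skin cultures, a difference of −0.60 (95% interval −1.07 to −0.13, limma adjusted p = 0.136). SNRPN differed by 0.39 (limma adjusted p = 0.0966) and 0.49 (limma adjusted p = 0.156) on its probe sets, with overlapping cultures. DIRAS3 differed by 0.17 (95% interval −0.79 to 1.13, limma adjusted p = 0.879), and the sign turned to −0.25 without M032 and to −0.02 without TA38.

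Within each line, the ESCs and their own teratoma fibroblasts differed in the same directions, and all 6 probe sets were called in both lines. The background was 13.7% of probe sets called for line 3806 and 12.7% for line 3106. In line 3806, PLAGL1 was 5.20 in ESCs and 9.40 ± 0.40 in teratoma cultures (n = 3), a difference of −4.20 (limma adjusted p = 0.00163). In line 3106, it was 4.59 in ESCs and 9.91 ± 0.78 in teratoma cultures (n = 5), a difference of −5.31 (limma adjusted p = 0.000298). DIRAS3 differed by −3.22 in line 3806 and −2.96 in line 3106, and SGCE by −2.50 in line 3806 and −2.17 in line 3106. SNRPN differed by 1.58 in line 3806 and 1.52 in line 3106 on the brighter probe set, and by 1.77 in line 3806 and 2.33 in line 3106 on the dimmer one. The 1.77 became 1.17 without C3806b and 2.37 without C3806a, and was called in both cases.

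MAGEL2 was also called in both lines. In line 3806 it was 8.23 in ESCs and 6.79 ± 0.40 in teratoma cultures, a difference of 1.44 (limma adjusted p = 0.00636). In line 3106 it was 8.94 in ESCs and 6.36 ± 0.30 in teratoma cultures, a difference of 2.58 (limma adjusted p = 0.000154). The test of that difference between lines did not call it, at −1.14 for 3806 minus 3106 (95% interval −2.09 to −0.19, limma adjusted p = 0.512). No other member was called in that test, which called 0.196% of probe sets, and MAGEL2 alone had an unadjusted p under 0.05, as 7.42% of all probe sets did. For PLAGL1 the same test gave 1.12 (95% interval −1.03 to 3.27, limma adjusted p = 0.998). With all 39 arrays under their labels, DIRAS3 (limma adjusted p = 0.0567) and MAGEL2 (limma adjusted p = 0.0573) lost their calls in line 3806, and PLAGL1 there was −2.73.

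Between the ESC lines themselves, tested on the spread between arrays of a source, MAGEL2 was the only member called, where 9.84% of probe sets were. It was lower in C3806, at 8.23 ± 0.23 (n = 2 arrays), than in C3106, at 8.94 ± 0.10 (n = 3 arrays), a difference of −0.71 (SE 0.11, limma adjusted p = 0.000309). The difference was −0.55 without C3806a (limma adjusted p = 0.0152). PLAGL1 was 5.20 ± 0.26 in C3806 and 4.59 ± 0.28 in C3106, a difference of 0.61 that was not called (limma adjusted p = 0.0909). DIRAS3 differed by 0.33 (limma adjusted p = 0.0845) and SGCE by −0.33 (limma adjusted p = 0.217). SNRPN differed by 0.21 (limma adjusted p = 0.223) and −0.35 (limma adjusted p = 0.331). Without C3806a, SGCE was at 0.08 and the dimmer SNRPN probe set at 0.25, so the sign of both rested on that array. With C3806b left out, so that C3806a stood alone for its line, SGCE was at −0.75 and the dimmer SNRPN probe set at −0.95. A test with a lone array assumes that it varies like the arrays of the other sources. DIRAS3 was called without C3106b (0.45, limma adjusted p = 0.0268). Between the teratoma cultures of line 3806 and those of line 3106, no member was called and none had an unadjusted p under 0.05 in limma, where 4.76% of all probe sets did. That comparison called 0.0321% of probe sets. MAGEL2 came nearest, at 6.79 ± 0.40 in the 3806 cultures and 6.36 ± 0.30 in the 3106 cultures (a difference of 0.43, 95% interval −0.01 to 0.86).

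The fibroblast cultures varied among themselves, and more for some members than for others. Over the 11 cultures the means of PLAGL1 spanned 3.17 units, or 9.02-fold, and those of DIRAS3 spanned 2.17 units, or 4.49-fold. SGCE spanned 1.33, MAGEL2 1.14 and SNRPN 0.96 and 1.30. These spans were tested against the spread between arrays of a culture, with limma's F test called at an adjusted p under 0.05. The labels count the arrays of a culture as biological replicates without saying how they were separated, so these tests may measure technical spread.

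PLAGL1 was highest in TD31 (10.64 ± 0.19, SD, n = 3 arrays) and TC31 (10.53 ± 0.26), whose arrays overlapped each other, followed by TB31 (10.18) and TA38 (9.77). Next came TC38 (9.46) and TA31 (9.33), again overlapping, and then TB38 (8.97) and TE31 (8.85 ± 0.46). The skin cultures M088 (8.66 ± 0.40) and M106p1 (8.58 ± 0.38) overlapped TE31 and each other. M032 stood apart at 7.47 ± 0.28, and the ESC lines C3806 (5.20) and C3106 (4.59) came last. In 7 of the 12 steps of this order the arrays of neighbouring sources did not overlap. PLAGL1 differed among the cultures of line 3106 (a range of 1.79, limma adjusted p = 3.04e-08) and of line 3806 (0.79, limma adjusted p = 0.0139), and among the skin cultures (1.19, limma adjusted p = 4.42e-05). The call in line 3806 was lost without array TB38c (limma adjusted p = 0.0752).

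DIRAS3 was highest in TA38 (10.59 ± 0.04), then in the skin culture M088 (10.31 ± 0.06) and in TE31 (9.88 ± 0.05), with no overlap between these. TB38 (9.70) and TC31 (9.69) overlapped each other. A separate run followed of M106p1 (9.24), TC38 (9.18), TB31 (9.11) and TA31 (9.06), each overlapping the next. M032 (8.52) and TD31 (8.42), which overlapped each other, were lowest among fibroblasts and stood apart from that run. TD31, the highest culture for PLAGL1, was thus the lowest fibroblast culture for DIRAS3. DIRAS3 differed among the cultures of line 3106 (a range of 1.46, limma adjusted p = 2.7e-11), of line 3806 (1.41, limma adjusted p = 1.39e-10) and of skin (1.79, limma adjusted p = 5.62e-13).

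SGCE was highest in the skin culture M106p1 (10.84 ± 0.11), whose arrays lay above those of all other sources, and lowest among fibroblasts in TC38 (9.52 ± 0.08). In 10 of the 12 steps of its order the neighbours overlapped. It differed among the cultures of line 3106 (a range of 0.78, limma adjusted p = 0.000523), of line 3806 (0.74, limma adjusted p = 0.00133) and of skin (0.60, limma adjusted p = 0.0157). The skin call was lost without array M106p1e (limma adjusted p = 0.196).

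SNRPN on its brighter probe set had the narrowest span of the 6 in fibroblasts. There TC38 was highest (11.82 ± 0.19) and M106p1 lowest (10.85 ± 0.11), and only M106p1 stood apart from its neighbour among the fibroblasts. Among the 5 cultures of line 3106 the range was 0.28 (limma adjusted p = 0.0738) on the brighter and 0.53 (limma adjusted p = 0.141) on the dimmer probe set, and neither was called. The brighter one was called with each array centred on its median (limma adjusted p = 0.013), without array TA31b (0.0498) or without TD31a (0.0487). The dimmer one was called without C3806a (limma adjusted p = 0.0212). Among the cultures of line 3806 the ranges were 0.43 (limma adjusted p = 0.00327) and 0.64 (limma adjusted p = 0.0432), and both were called. The dimmer one lost its call without any one of 7 of the 9 arrays, all but TA38c and TC38c, with limma adjusted p up to 0.169. Among skin cultures they were 0.42 (limma adjusted p = 0.00354) and 0.69 (limma adjusted p = 0.0343), and without array M106p1e both lost the call (limma adjusted p = 0.131 and 0.297). The dimmer one also lost it without M088a, M088b or M106p1b.

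MAGEL2 was highest among fibroblasts in TC38 (7.15 ± 0.13) and TB38 (6.85 ± 0.16), which overlapped. TE31 (6.69 ± 0.05) and TA31 (6.67 ± 0.01) followed, and TA38 (6.36 ± 0.21), TB31 (6.22), TC31 (6.11) and TD31 (6.10) came next. The skin cultures M032 (6.08), M088 (6.03) and M106p1 (6.01) were last and spanned only 0.06 units (limma adjusted p = 0.882). Since the fibroblast signals of MAGEL2 were not shown to lie above background, this order may not be one of RNA amounts. MAGEL2 differed among the cultures of line 3106 (a range of 0.58, limma adjusted p = 4.7e-06) and of line 3806 (0.79, limma adjusted p = 2.9e-06). In C3106 MAGEL2 ranked at the 76.4 percentile of probe sets, and in the skin cultures at the 29.5 to 31.0 percentile.

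In all, 4 of the 5 genes were called among the cultures of line 3106, where 35.8% of probe sets were. All 5 were called among those of line 3806, where 24.7% of probe sets were, and 4 among skin cultures, where 31.8% were. The counts were 2, 2 and 1 of 5 with the 3 left-out arrays put back under their labels. In that setting 4636, 2257 and 3202 of 24956 probe sets were called, instead of 8940, 6160 and 7932. The percentages are of probe sets and not of genes. With 1 probe set a gene, 5703, 4086 and 5027 of 14132 genes were called, in the same order.

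**Figure D3:**
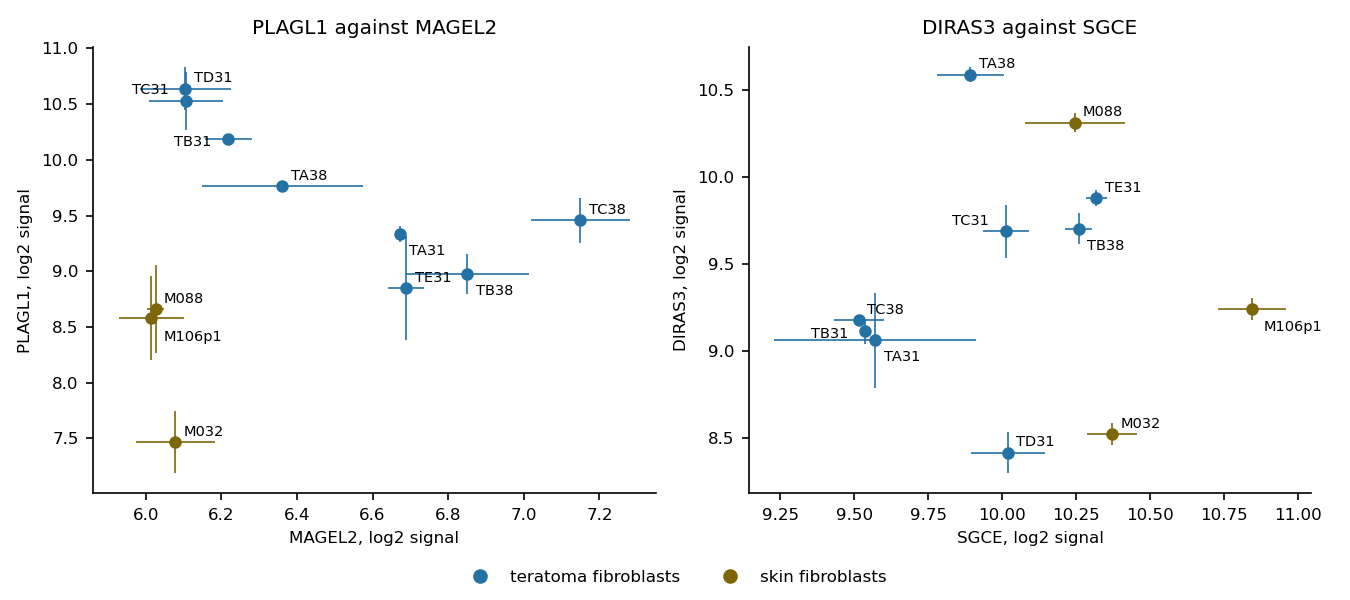
Mean log2 signal of the 11 fibroblast cultures for PLAGL1 against MAGEL2 (left) and DIRAS3 against SGCE (right), with teratoma cultures in blue, skin cultures in brown and bars of 1 SD between arrays. The teratoma cultures with high PLAGL1 (TD31, TC31 and TB31) had low MAGEL2, and the skin cultures were low in both.

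Over the 8 teratoma cultures PLAGL1 and MAGEL2 ran in opposite directions (r = −0.82), while over all 11 fibroblast cultures they did not (r = 0.01), since the skin cultures were low in both. SNRPN and MAGEL2, from the same region of chromosome 7, gave r = 0.64 over 11 cultures and 0.50 over 8 with the brighter SNRPN probe set. SGCE and the same SNRPN probe set gave −0.81 over 11 and −0.50 over 8. DIRAS3 had no r beyond 0.11 in size with another member over 11 cultures. Over 8 its r ran from −0.43 with the dimmer SNRPN probe set to 0.35 with SGCE. These are descriptions over few cultures, several of which share a genome, and MAGEL2 was not shown to lie above background in them.

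The teratoma cultures also differed in markers of other cells. The mean of 11 skeletal muscle markers ran from 5.70 to 9.27 in teratoma cultures, against 5.62 to 6.02 in skin cultures, with TB31 (9.27) and TD31 (9.17) highest. MYH3, the embryonic myosin heavy chain, read 12.18 in TB31 and 11.80 in TD31, against 4.44 in TA31. Over the 8 teratoma cultures the muscle mean gave r = 0.60 with PLAGL1 and −0.59 with MAGEL2, and its part in their levels was not tested. TC31 had PLAGL1 at 10.53 with a muscle mean of 6.31. Without TB31 and TD31 the ESC minus teratoma difference of PLAGL1 was −4.59 and that of MAGEL2 1.95. The mean of 11 neural markers ran from 6.81 to 8.25 in teratoma cultures and 6.93 to 7.03 in skin cultures, with 7.78 to 7.84 in ESC lines. It was lowest in TD31 and highest in TA38. The neural markers did not move together: SOX2 averaged 12.48 in ESC lines and 7.76 in teratoma cultures, and TUBB3 averaged 8.84 and 10.12. Their mean is therefore not read as neural content.

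Genes lying near the members were called in some cases and not in others. NDN, the gene next to MAGEL2 and also paternally expressed, was not called, at 11.45 in ESC lines, 11.34 in teratoma cultures and 11.40 in skin cultures. MKRN3 (4.86 in ESC lines, 4.93 in teratoma cultures and 4.81 in skin cultures) and NPAP1 (6.17 in ESC lines, 6.08 in teratoma cultures and 6.09 in skin cultures), from the same region, were not called either. Neither MKRN3 nor NPAP1 was shown to lie above background in any source. On the other side of SNRPN, UBE3A was not called, with a difference of 0.44 from teratoma fibroblasts. ATP10A, the next measured gene beyond UBE3A, was called. It was lower in ESCs than in teratoma (−3.47) and skin fibroblasts (−3.58) on its brightest probe set, and its other probe sets were not called. CASD1, the gene next to SGCE, was not called against teratoma fibroblasts (0.79) and was higher in ESCs than in skin fibroblasts (1.18). COL1A2, a fibroblast collagen gene with 2 annotated genes between it and SGCE, was lower in ESCs than in teratoma fibroblasts (−3.96).

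Next to PLAGL1, SF3B5 was not called (−0.23), and STX11 beyond it was lower in ESCs (−3.61). Near DIRAS3, the Wnt secretion factor WLS was lower in ESCs (−3.87), and the DNA damage gene GADD45A was not called (−0.52). PEG10, SNURF and HYMAI, close imprinted partners of SGCE, SNRPN and PLAGL1, had no probe set naming them alone.

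Among paternally expressed imprinted genes in general, 16 of 27 listed were measured. In ESCs against teratoma fibroblasts 2 were higher and 3 lower, all of them members, with a median difference of −0.10 against 0.02 over all genes. The members were chosen with their calls known, so nothing about the list is read from this count or the one against skin fibroblasts. At gene level, 14.5% of genes were called in that comparison, 6.3% as higher and 8.17% as lower. The other 11, among them IGF2 (−1.31, limma adjusted p = 0.0675), DLK1 (−0.32), PEG3 (−0.62) and NDN, were not called. Against skin fibroblasts 3 were higher and 3 lower, where 20% of genes were called, 10.2% as higher and 9.74% as lower. The gene added was MEST, a hydrolase-like imprinted gene, at 11.58 in ESC lines and 6.43 in skin cultures, a difference of 5.15 (limma adjusted p = 0.000211). MEST was also the 1 listed gene called between teratoma and skin fibroblasts, at 12.06 in teratoma cultures and 6.43 in skin cultures, where 1.18% of genes were called, 0.658% as higher and 0.524% as lower.

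Of 17 measured maternally expressed imprinted genes, none was higher in ESCs than in teratoma fibroblasts and 3 were lower, with a median of −0.14, beside 8.17% of all genes lower. These were H19, a growth-restraining noncoding RNA (−4.03, limma adjusted p = 0.0228), ATP10A (−3.47) and the carboxypeptidase gene CPA4 (−2.83). ATP10A's other probe sets differed by −0.10 and −0.28 and were not called, and those of H19 by −2.72, which was called, and −2.04, which was not. Against skin fibroblasts the coagulation inhibitor TFPI2 (−4.18) and ATP10A (−3.58) were lower and none was higher, beside 9.74% of all genes lower. Of TFPI2's other probe sets 2 were called there (−5.56 and −4.59) and 2 were not (−0.02 and 0.35).

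**Figure D4:**
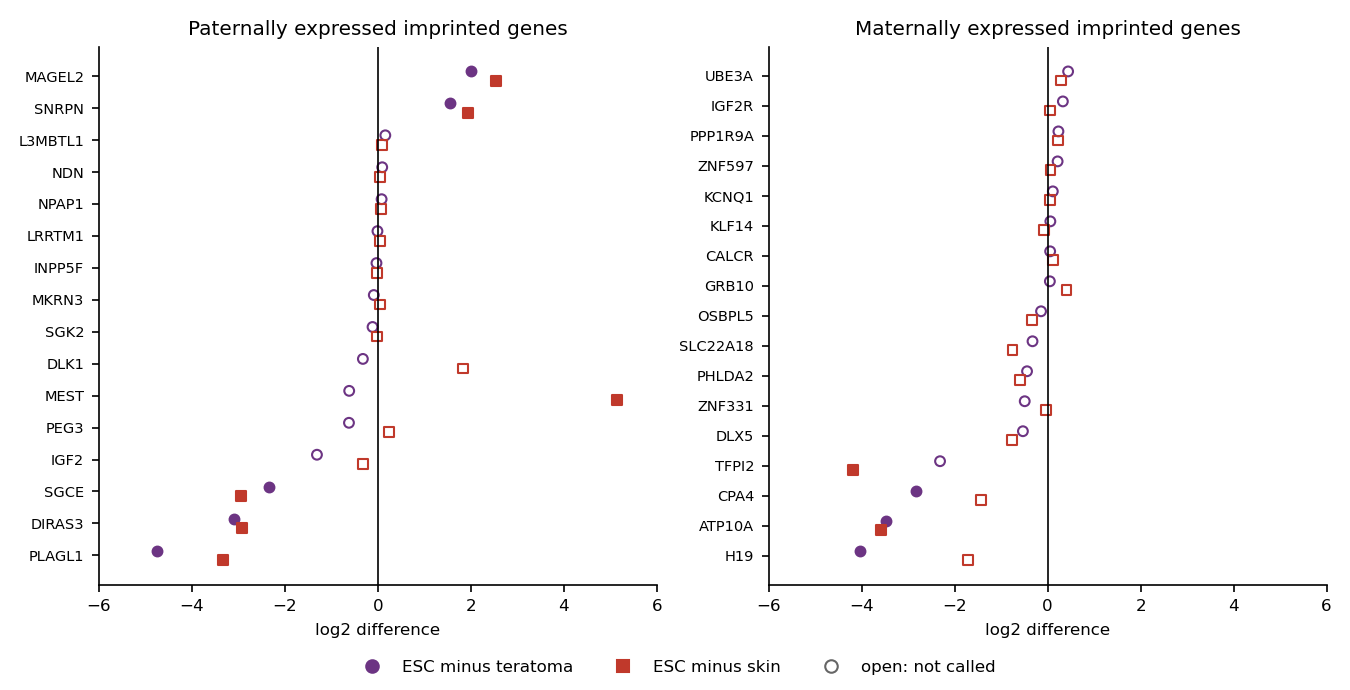
Log2 difference (horizontal axis) of each measured imprinted gene, in ESCs minus teratoma fibroblasts (circles) and ESCs minus skin fibroblasts (squares), for paternally expressed (left) and maternally expressed (right) genes, with filled symbols for called differences. The circles of the 5 members lie at both ends of the left panel, and MEST has the highest square, at 5.15.

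The proteins that keep imprints in place were measured for 11 of 15 listed genes. In ESCs against teratoma fibroblasts 3 were higher and none lower, with a median of 0.49, beside 6.3% of all genes higher. The chromatin remodeller HELLS was higher by 1.95 (limma adjusted p = 0.00998), the histone methyltransferase EHMT2 by 1.40 (limma adjusted p = 0.000104) and the corepressor TRIM28 by 1.20 (limma adjusted p = 0.000791). The other HELLS probe sets (0.83 and 0.57) and the other EHMT2 probe set (0.30) were not called. The maintenance methyltransferase DNMT1 (0.49) and its partner UHRF1 (−0.38) were not called. The same 3 genes were higher against skin fibroblasts, beside 10.2% of all genes, and none was called between teratoma and skin fibroblasts.

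For the spliceosomal proteins and their assembly factors, which SNRPN belongs to, 13 of 20 were measured. Against teratoma fibroblasts 3 were higher in ESCs and none lower, with a median of 0.83, beside 6.3% of all genes higher. They were WDR77, a cofactor of Sm protein methylation (1.28, limma adjusted p = 8.38e-05), the U1 protein SNRPA (1.26, limma adjusted p = 0.00249) and the Sm protein SNRPD3 (1.06, limma adjusted p = 0.00103). The other WDR77 probe set, at 0.81, was short of the size limit. SNRPB, the close relative of SNRPN, was 11.73 in ESC lines and 11.11 in teratoma cultures, a difference of 0.62 that was short of a call (limma adjusted p = 0.0173). Against skin fibroblasts 8 of the 13 were higher, with a median of 1.10 and SNRPA at 1.85, beside 10.2% of all genes higher. None was called between teratoma and skin fibroblasts.

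For PLAGL1, 16 of 21 genes tied to it as relatives, targets or partners in the mouse imprinted gene network were measured. In ESCs 4 were lower than in teratoma fibroblasts and none higher, with a median of −0.31: the matrix proteoglycan DCN (−6.77), H19 (−4.03), the cell cycle inhibitor CDKN1A (−3.43) and the transcription factor TCF4 (−1.30). Of all genes, 8.17% were lower in that comparison. DCN is also one of the fibroblast markers, and 1 of its 4 other probe sets was not called (0.19). Against skin fibroblasts DCN (−6.81), CDKN1A (−3.95) and TCF4 (−1.41) were lower and MEST was higher, beside 9.74% of all genes lower and 10.2% higher. MEST alone was called between teratoma and skin fibroblasts, as higher in teratoma cultures, beside 0.658% of all genes.

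Of 13 measured genes tied to DIRAS3, CDKN1A was the 1 called, lower in ESCs than in either fibroblast kind, with a median of −0.24 against teratoma fibroblasts, beside 8.17% of all genes lower than in teratoma and 9.74% lower than in skin fibroblasts. Between teratoma and skin fibroblasts its relative DIRAS2 was higher in teratoma cultures (4.85, against 3.81 in skin cultures, limma adjusted p = 0.0483), beside 0.658% of all genes. Neither DIRAS2 signal was shown to lie above background. Of 9 measured dystrophin and sarcoglycan genes, LAMA2, a laminin chain, was lower in ESCs than in teratoma fibroblasts (−3.49, limma adjusted p = 0.0148), and none was higher, beside 8.17% of all genes lower. Their median was −0.54. LAMA2's other probe sets differed by −2.32, which was called, and 0.03, which was not. SGCB, beta-sarcoglycan, missed the size limit at −0.97 (limma adjusted p = 4.26e-05) on its brightest probe set and was called on its 4 other probe sets. SGCD, delta-sarcoglycan, was 5.55 in ESC lines, 6.13 in teratoma cultures and 7.79 in skin cultures. It was lower in ESCs than in skin (−2.24). It was also lower in teratoma than in skin fibroblasts (−1.71, limma adjusted p = 0.00351), beside 0.524% of all genes. The dimmer SGCD probe set was not called in any of these (−0.47 for ESCs against skin and −0.36 for teratoma against skin). SGCB (−1.01) was also lower in ESCs than in skin, beside 9.74% of all genes, and 1 of its 4 other probe sets was not called there (−0.97). The dystrobrevin DTNA was called as higher (1.03) on 1 of its 5 probe sets, and the other 4 differed by 0.08 to 0.60 and were not called.

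For MAGEL2, 14 of 20 MAGE, ubiquitin ligase and retromer or WASH genes were measured. TRIM28 was higher in ESCs than in teratoma fibroblasts (1.20) and MAGEH1 lower (−1.70), with a median of −0.03, beside 6.3% of all genes higher and 8.17% lower. TRIM27, the ligase that MAGEL2 is known to bind, differed by 0.26 and was not called. Against skin fibroblasts the same 2 were called, beside 20% of all genes, and between teratoma and skin fibroblasts none was.

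The genes whose means over the 13 sources were most like each member's were ranked by Pearson's r among 2927 genes with an SD of at least 0.5. All r values rest largely on the shared split between ESCs and fibroblasts, so the value within the 11 fibroblast cultures is given beside each. For PLAGL1 they were DIP2C (0.967 over 13 sources and 0.887 over 11 cultures), NR2F2 (0.967 and 0.834) and TFPI (0.962 and 0.823). For DIRAS3 they were TCIM (0.940 and 0.716), BST1 (0.930 and 0.699) and FBXO32 (0.929 and 0.703). For SGCE they were LOC699404 (0.987 and 0.916), CCSER2 (0.979 and 0.849) and EDEM1 (0.976 and 0.822).

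For SNRPN on the brighter probe set they were the mitochondrial helicase gene TWNK (0.989 and 0.909), the purine synthesis gene PFAS (0.987 and 0.892) and the ribosome biogenesis gene TCOF1 (0.983 and 0.865). For MAGEL2 they were CLYBL (0.969 and 0.840), LOC717718 (0.964 and 0.776) and FAM169A (0.960 and 0.733). No member was among another's 3 most alike genes.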

How the data were processed

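RNA of 39 cultured rhesus macaque samples was measured on single-colour arrays. Per probe set, the authors deposited a log2 signal made with GCOS and RMA per the submitters' processing notes, with versions and settings not given in the sources used here. Target preparation followed a Codelink protocol, per the labels' protocols. The values were used as deposited. They ran from 2.11 to 14.18, with array medians of 6.25 to 6.48. Depth does not apply to arrays, and their number limits the precision.

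The 36 arrays used were averaged by source. With limma 3.58.1 (R 4.3.3), a linear model was fitted to the 13 means in 5 classes (each ESC line, the teratoma cultures of each line, and skin), leaving 8 residual degrees of freedom. Each ESC line was 1 source, so the spread came from the fibroblast cultures. Array-level tests used 36 arrays with sources as groups. P-values were adjusted by Benjamini-Hochberg over 24956 probe sets that name 1 gene in the platform annotation, and tests were two-sided. Probe sets naming several genes (361) or none (27535) were left out. A listed gene was represented by its brightest probe set, and up to 4 called genes with the largest difference were named per list and comparison. SGCB, SNRPB, DNMT1, UHRF1, TRIM27, the uncalled imprinted genes and the flanking genes were named outside that rule, after their values were seen. Gene order and chromosomes came from the RefSeq table of assembly T2T-MMU8v2.0. No coordinates and no sequences are given. The members and lists were chosen with earlier results of these data known. The fits were tested on simulated data. Array letters did not pair samples across sources (median r of 0.06 for the same letter and −0.03 for different letters). Alternatives were other normalizations, filters, arrays left out, a random block for the source, and a replicate block.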

Additional observations from a re-analysis of the deposited data

How the results depend on the processing

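The 6 calls of ESCs against teratoma fibroblasts and against skin fibroblasts kept direction and threshold under all alternatives run, including each array and each fibroblast culture left out. Over all comparisons, 2683 alternative values of the members were computed: 2640 kept their side of the threshold, 32 lost a call, 11 gained one and none reversed while called. Some uncalled differences among the 2640 changed sign, such as DIRAS3 between teratoma and skin fibroblasts. Of the 5 genes, none was called between teratoma and skin fibroblasts, and 1 (PLAGL1, 1.43, limma adjusted p = 0.000332) with the source as a random block on arrays; leaving out cultures gave 0 to 1. With all 39 arrays under their labels, 3 were called against 5 for ESCs and teratoma fibroblasts of line 3806, 2 against 1 between ESC lines, 2 against 4 among cultures of line 3106, 2 against 5 among cultures of line 3806, and 1 against 4 among skin cultures. Leaving out single arrays gave 1 to 4 between ESC lines (4 without C3806b, 2 without C3106b), 4 to 5 among cultures of either line and 2 to 4 among skin cultures (2 without M106p1e). With the array letter as a replicate block 2 were called among skin cultures and the dimmer SNRPN probe set lost its call among cultures of line 3806 (adjusted p = 0.0527), as it also did with arrays centred on their medians (0.0846) and with all 39 arrays (0.349).

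Counts over all probe sets moved more. Between teratoma and skin fibroblasts 265 were called, and 72 with all 39 arrays, 926 with the random block, 100 without TB31 and TD31, 112 without M032 and 576 without TE31. The test between lines called 49, and 0 to 111 under other settings, with 592 without C3806b. Teratoma cultures of the lines differed at 8, and at 2 without TB31 and TD31 and 74 with the random block. Between ESC lines 2455 were called, 1187 without C3806a, 1207 with all 39 arrays and 5018 without C3806b. All 39 arrays gave 1567 for 3412 in line 3806, 4636 for 8940 among cultures of line 3106, 2257 for 6160 of line 3806 and 3202 for 7932 of skin. With 1 probe set a gene, fewer are tested: 2043 for 3652 (ESCs against teratoma), 2823 for 4816 (ESCs against skin), 170 for 265, 1831 for 3164 in line 3106 and 1845 for 3412 in line 3806, 8 for 49, 1150 for 2455, 5703 for 8940, 4086 for 6160 and 5027 for 7932. The cause of these shifts was not tested.

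Each ESC line was 1 source, and C3806 rested on 2 arrays, 1 of them with a wide actin gap.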
